A study of Caenorhabditis elegans with 9 samples.

Results

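The hsp-16 genes of Caenorhabditis elegans encode small heat shock proteins of the alpha-crystallin family. The 6 genes hsp-16.1, hsp-16.11, hsp-16.2, hsp-16.41, hsp-16.48 and hsp-16.49 were taken by name from the 46986 genes of the deposited table, and all 6 were found. Their RNA was measured by sequencing whole worms in 9 libraries, 3 in each of 3 groups. FA worms received a high-fat treatment together with farrerol, a flavanone from Rhododendron. HFD worms received the high-fat treatment alone, and OP worms were the control. The series title names citrate as what raised fat and DAF-16, the forkhead factor of insulin-like signalling, as the route under study. The labels name no strain, genotype, age, dose or duration. They do not say either that a group's libraries were grown separately, so the p-values reflect only the spread among these libraries, some of which may be technical.

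Small heat shock proteins assemble into large oligomers that hold partly unfolded proteins until ATP-driven chaperones such as HSP70 refold them. In worms the hsp-16 genes are near silent at rest and are strongly induced by heat and other proteotoxic stress through the heat shock factor HSF-1, and DAF-16 also promotes their expression. Reporters built on the hsp-16.2 promoter are a common readout of stress in the living animal.

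The family lies at 2 places on chromosome V (build WBcel235), in head-to-head pairs whose members are transcribed away from each other. The first pair is hsp-16.2 (chrV:1804334-1804957, minus strand) and hsp-16.41 (chrV:1805178-1805875, plus strand), with 220 bases between the gene starts. The second locus spans 3312 bases and holds 4 genes. There hsp-16.1 (chrV:9087293-9087782, minus strand) is paired with hsp-16.48 (chrV:9088131-9088617, plus strand) across 348 bases, and hsp-16.49 (chrV:9089280-9089766, minus strand) with hsp-16.11 (chrV:9090077-9090604, plus strand) across 310 bases. Every member has 2 exons in the annotation. The minus-strand genes hsp-16.2 and hsp-16.1 and the plus-strand gene hsp-16.11 encode 145 residues, and the other members encode 143.

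**Figure D1:**
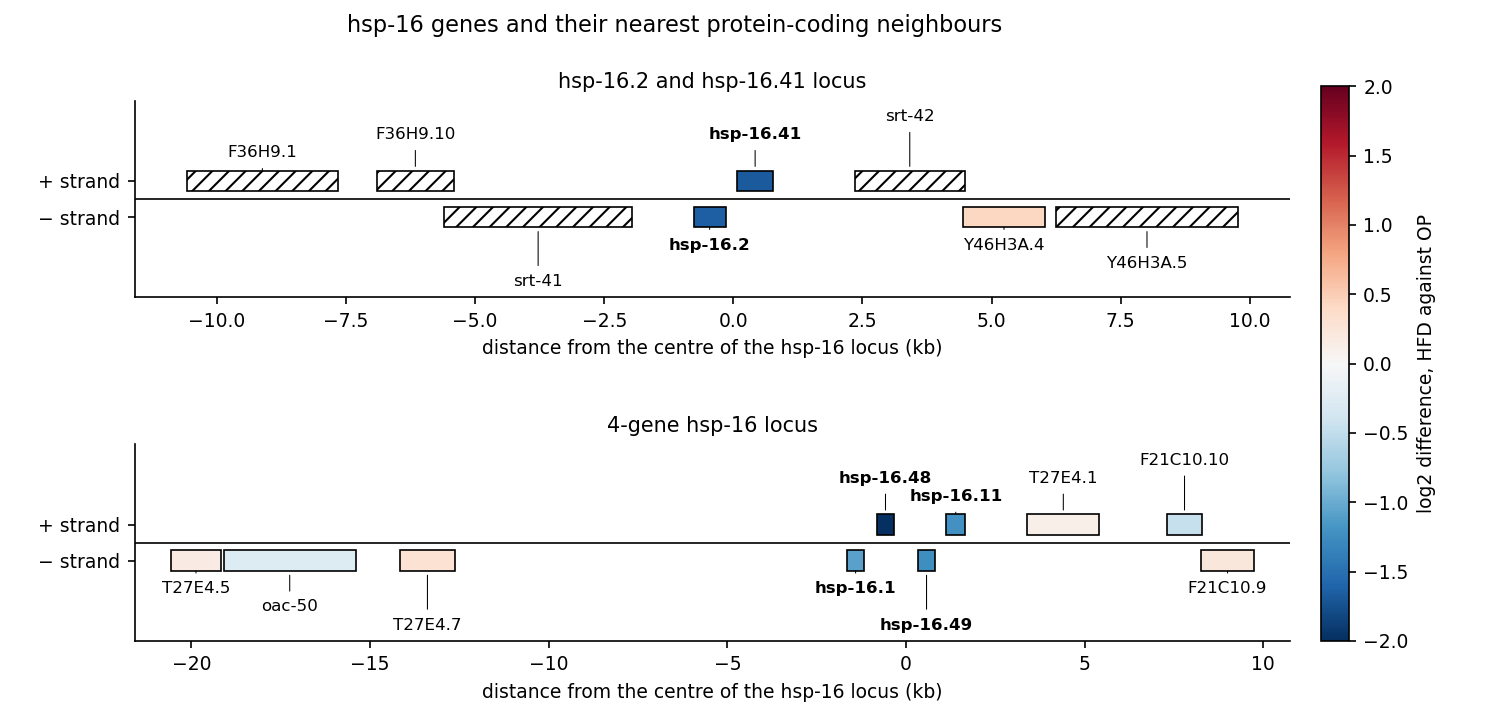
Map of both hsp-16 loci on chromosome V, with the 3 nearest protein-coding genes on each side, against distance from the centre of the locus in kilobases; boxes above the line lie on the plus strand and boxes below it on the minus strand. Colour gives the log2 difference between HFD and OP on the log2(FPKM + 1) scale, and hatched genes were too low to test; all 6 hsp-16 boxes are blue, from -1.999 to -1.09, and the neighbours are pale.

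Copies within the second locus are hard to tell apart by short reads. The deposited descriptions give hsp-16.1 and hsp-16.11 one shared protein entry, and hsp-16.48 and hsp-16.49 another. The reference annotation even uses the name hsp-16.48 for the hsp-16.49 locus and hsp-16.1 for the hsp-16.11 locus, at the same positions as in the table. How the authors assigned reads that match more than 1 copy is not stated in the labels or the table, so values of these 4 genes are uncertain singly, and sums over copies are given beside them. The annotated models of hsp-16.1, hsp-16.48 and hsp-16.49 hold no untranslated bases, whereas only 67.5% of the counted length of hsp-16.41 and 75.8% of that of hsp-16.2 is coding. Levels per length therefore compare unlike parts of the transcripts across the loci.

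Reads on genes numbered 17514542 to 21419867 per library. Levels are in FPKM, fragments per kilobase of gene in a library of scaled size, and the 14730 genes that reached 1 FPKM in 3 or more libraries were tested. All 6 hsp-16 genes passed that filter, with 37 to 4868 reads each per library. FA replicate 3 stood apart in its own group by hsp-16 level. The sum of the 6 genes was 782 FPKM there, against 305 and 321 FPKM in the other FA libraries. It also had the lowest total FPKM, 749001 against 861772 to 1083310 in the other 8 libraries, and lay at the opposite end from FA replicate 2 on the second principal component of all genes (-30.6 against 26.1, a component with 10.76% of the variance). The fitted differences of the members that use the FA group are therefore given with and without it.

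The 6 genes contributed unevenly to the RNA of the family. The first pair supplied between 82.5% and 87.2% of the summed FPKM in each of the 9 libraries. By mean level per length in OP worms the order was hsp-16.2, hsp-16.41, hsp-16.48, hsp-16.49, hsp-16.11 and hsp-16.1. The OP levels were 315 ± 49.1 FPKM for hsp-16.2 and 279 ± 39.2 FPKM for hsp-16.41 (SD, n = 3 each). In each library hsp-16.41 lay below hsp-16.2. Both genes were thus not near silent in these controls, and the reason was not tested. The OP libraries of hsp-16.48 (44.4 ± 12.7 FPKM) and hsp-16.49 (29.8 ± 5.79 FPKM) overlapped, whereas hsp-16.11 (20.04 ± 1.09 FPKM) lay above hsp-16.1 (12.9 ± 1.35 FPKM).

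**Figure D2:**
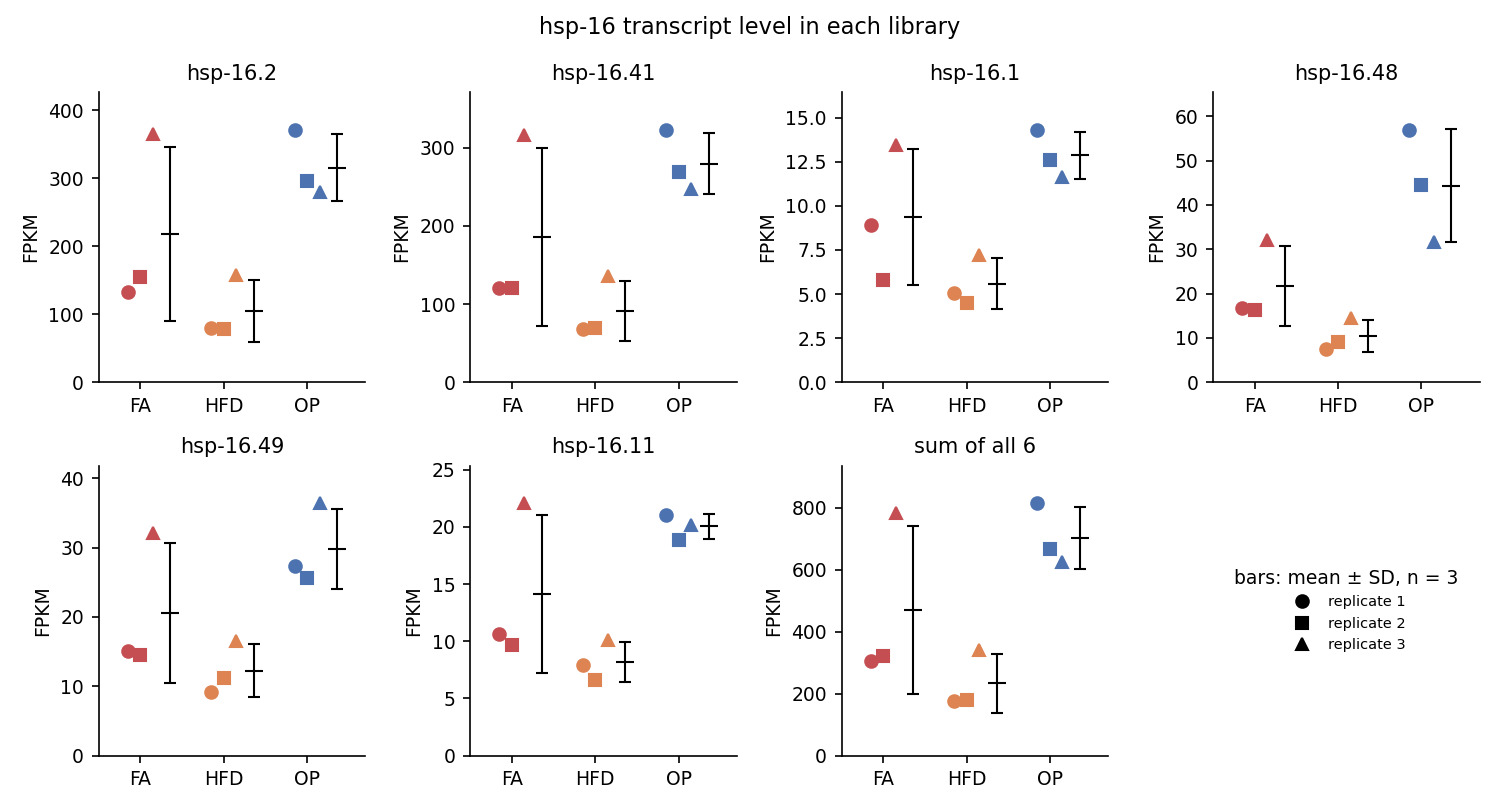
FPKM of each hsp-16 gene and of their sum in the 9 libraries (FA, HFD, OP from left to right; points are libraries, marker shape gives the replicate number, bars are mean ± SD, n = 3). Every HFD point lies below every OP point in all 7 panels, and FA replicate 3 sits among or near the OP points while the other FA libraries lie lower.

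In the high-fat worms the whole family was lower than in the controls. The sum of the 6 genes was 177, 179 and 342 FPKM in HFD worms, against 814, 666 and 626 FPKM in OP worms. Every HFD library lay below every OP library, and HFD replicate 3 was the highest of its group. The means were 233 ± 94.6 FPKM in HFD and 702 ± 99.0 FPKM in OP (SD, n = 3 each), so HFD worms held 0.332 times the OP level. The sum carries no test, since the members were chosen with results of these data known. All 6 members were called lower by limma (p adjusted by Benjamini and Hochberg's method across the genes tested, threshold 0.05), where 4.62% of all genes tested were called lower. HFD and OP did not overlap for any of the 6, as was so in the same direction for 16.6% of all genes. The median log2 difference of the members was -1.44, against 0.01 over all genes tested.

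At the first locus, hsp-16.2 had 80.2, 77.8 and 158 FPKM in HFD worms, against 371, 295 and 279 FPKM in OP worms. The groups lay clear of each other, with HFD replicate 3 well above its companions. The log2 difference of hsp-16.2 was -1.64 (SE 0.37, limma adjusted p = 0.0258). Its partner hsp-16.41 had 67.5, 69.7 and 136 FPKM in HFD worms, against 323, 269 and 247 FPKM in OP worms. It followed hsp-16.2 closely, with HFD replicate 3 again highest in its group and OP replicate 1 highest of all. Its log2 difference was -1.68 (SE 0.37, limma adjusted p = 0.0249).

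At the second locus, hsp-16.48 had 7.60, 9.15 and 14.5 FPKM in HFD worms, against 57.0, 44.6 and 31.6 FPKM in OP worms. OP replicate 1 was far above the rest, and no HFD library reached the lowest OP library. This was the largest difference of the family, a log2 difference of -1.999 (SE 0.30, limma adjusted p = 0.00482). The copy hsp-16.49 had 9.12, 11.1 and 16.6 FPKM in HFD worms, against 27.3, 25.6 and 36.4 FPKM in OP worms. Here OP replicate 3, the lowest OP library for hsp-16.48, was the highest. The log2 difference of hsp-16.49 was -1.24 (SE 0.30, limma adjusted p = 0.0346).

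The remaining copies are the genes for the longer protein at that locus. For hsp-16.1 the HFD libraries had 5.04, 4.51 and 7.24 FPKM, against 14.3, 12.63 and 11.7 FPKM in OP. For hsp-16.11 they had 7.90, 6.597 and 10.1 FPKM, against 21.03, 18.9 and 20.2 FPKM in OP. Both genes were lower in every HFD library than in any OP library, with HFD replicate 3 nearest to OP. The log2 differences were -1.09 for hsp-16.1 (SE 0.26, limma adjusted p = 0.0306) and -1.21 for hsp-16.11 (SE 0.26, limma adjusted p = 0.0228).

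Among all 14730 genes, 86 had a log2 difference below that of hsp-16.48 and 381 one below that of hsp-16.1, the member with the smallest difference. The call for hsp-16.48 held when any 1 library was left out, with a limma adjusted p of at most 0.0285. The other 5 members were no longer called without HFD replicate 1, HFD replicate 2 or any 1 of the OP libraries, with adjusted p of at most 0.132. Their log2 differences stayed between -1.76 and -0.97 in these fits, and all 6 members were called without HFD replicate 3 or without any 1 FA library. The number of all genes called lower also changed with the library left out, from 111 to 998, against 680 with none left out.

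**Figure D3:**
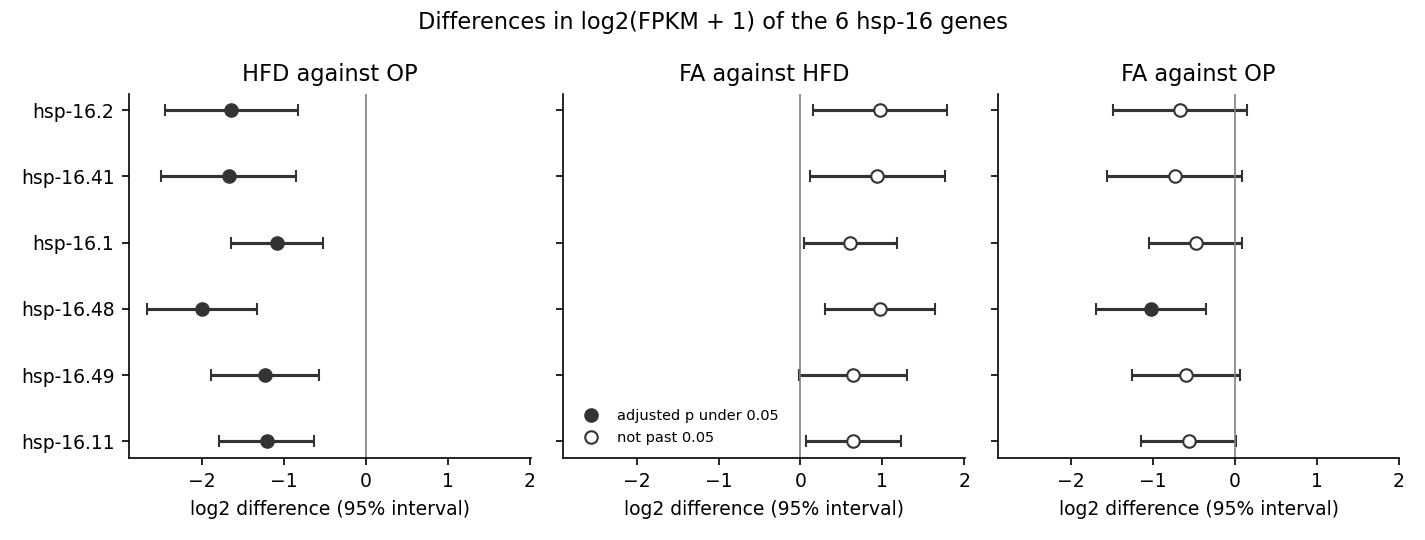
Log2 differences of the 6 hsp-16 genes on the log2(FPKM + 1) scale with 95% limma intervals, one panel per comparison; filled points were called at an adjusted p under 0.05. All 6 are filled and below 0 for HFD against OP, none is filled and all lie above 0 for FA against HFD, and hsp-16.48 alone is filled for FA against OP.

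Whole-worm RNA does not tell fewer cells of a type from less RNA per cell, and other parts of the transcriptome moved alongside. Oocyte and eggshell markers were called lower in HFD for 11 of 12 genes (median log2 difference -1.12), where 4.62% of all genes tested were, with summed levels of 350 to 473 FPKM in HFD and 805 to 1139 FPKM in OP. Sperm markers were called lower for 6 of 12 (median -0.94), against the same 4.62%, with 373 to 387 FPKM in HFD and 703 to 974 FPKM in OP. None of the 8 intestine, 8 body wall muscle or 8 epidermis markers was called by limma, at unadjusted p under 0.05 in 0, 0 and 2 genes. The summed intestine markers were 5145 to 9116 FPKM in HFD and 4799 to 5271 FPKM in OP. Body wall muscle markers summed to 6035 to 7928 FPKM in HFD and 5123 to 6779 FPKM in OP, and epidermis markers to 580 to 711 FPKM in HFD and 499 to 569 FPKM in OP. Without HFD replicate 2, HFD replicate 3, OP replicate 2 or OP replicate 3 the oocyte and eggshell calls numbered 2, 6, 2 and 2, and the sperm calls 3, 4, 0 and 2. Calls over all genes varied too, with 111 to 998 lower when a library was left out. No marker of these 5 lists was at 0 in any library. The part of the markers in the hsp-16 difference was not tested.

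Worms given farrerol on top of the high-fat treatment had higher mean levels of every hsp-16 gene than HFD worms, but none was called. The sum of the family was 305, 321 and 782 FPKM in FA worms, against 177, 179 and 342 FPKM in HFD worms. FA replicates 1 and 2 lay below HFD replicate 3, so the groups overlapped. The ratio of the group means was 2.02 (FA 469 ± 271, HFD 233 ± 94.6 FPKM, SD, n = 3 each) and 1.34 without FA replicate 3.

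By limma 0 of the 6 members were called in FA against HFD, where 0% of all genes were called higher and 0.00679% (1 gene) lower. The voom fit of the recovered reads also called 0. All 6 log2 differences were positive, with a median of 0.79, against 0.00 over all genes. At an unadjusted limma p under 0.05 there were 5 members, where 0.733% of all genes tested were that low and higher in FA. Without FA replicate 3 the median was 0.41. Only 1 member was at an unadjusted p under 0.05 when FA replicate 3, HFD replicate 1 or HFD replicate 2 was left out. The number was 2 in a fit of FA and HFD alone and 3 after rescaling to equal FPKM sums. Shares of all genes in these altered fits are not given here.

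The gene hsp-16.48 had 16.7, 16.3 and 32.1 FPKM in FA worms, against 7.60, 9.15 and 14.5 FPKM in HFD worms. It was the member with no overlap between FA and HFD, which in this direction was so for 1.83% of all genes. Its log2 difference was 0.97 with a 95% limma interval of 0.30 to 1.65 (adjusted p = 1), and 0.67 without FA replicate 3. For hsp-16.2 the FA libraries had 133, 154 and 365 FPKM and for hsp-16.41 they had 120, 120 and 317 FPKM. In both genes FA replicates 1 and 2 lay below HFD replicate 3 (158 and 136 FPKM) and above the other HFD libraries, and FA replicate 3 reached the OP range. The log2 difference of hsp-16.2 was 0.97 (limma interval 0.15 to 1.79) and that of hsp-16.41 was 0.94 (0.12 to 1.76), with adjusted p = 1 for each. Without FA replicate 3 they were 0.52 and 0.48.

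The other copies of the second locus differed less between FA and HFD. The FA libraries had 15.02, 14.5 and 32.1 FPKM of hsp-16.49, a log2 difference from HFD of 0.64 (limma interval -0.02 to 1.30, adjusted p = 1). They had 8.91, 5.79 and 13.5 FPKM of hsp-16.1, a log2 difference of 0.61 (0.04 to 1.17, limma adjusted p = 1). They had 10.6, 9.71 and 22.1 FPKM of hsp-16.11, a log2 difference of 0.65 (0.06 to 1.23, limma adjusted p = 1). In all 3 genes at least 1 of FA replicates 1 and 2 fell below HFD replicate 3, and FA replicate 3 was the highest of the 6 libraries. Without FA replicate 3 the log2 differences from HFD were 0.29 for hsp-16.49, 0.34 for hsp-16.1 and 0.30 for hsp-16.11.

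**Figure D4:**
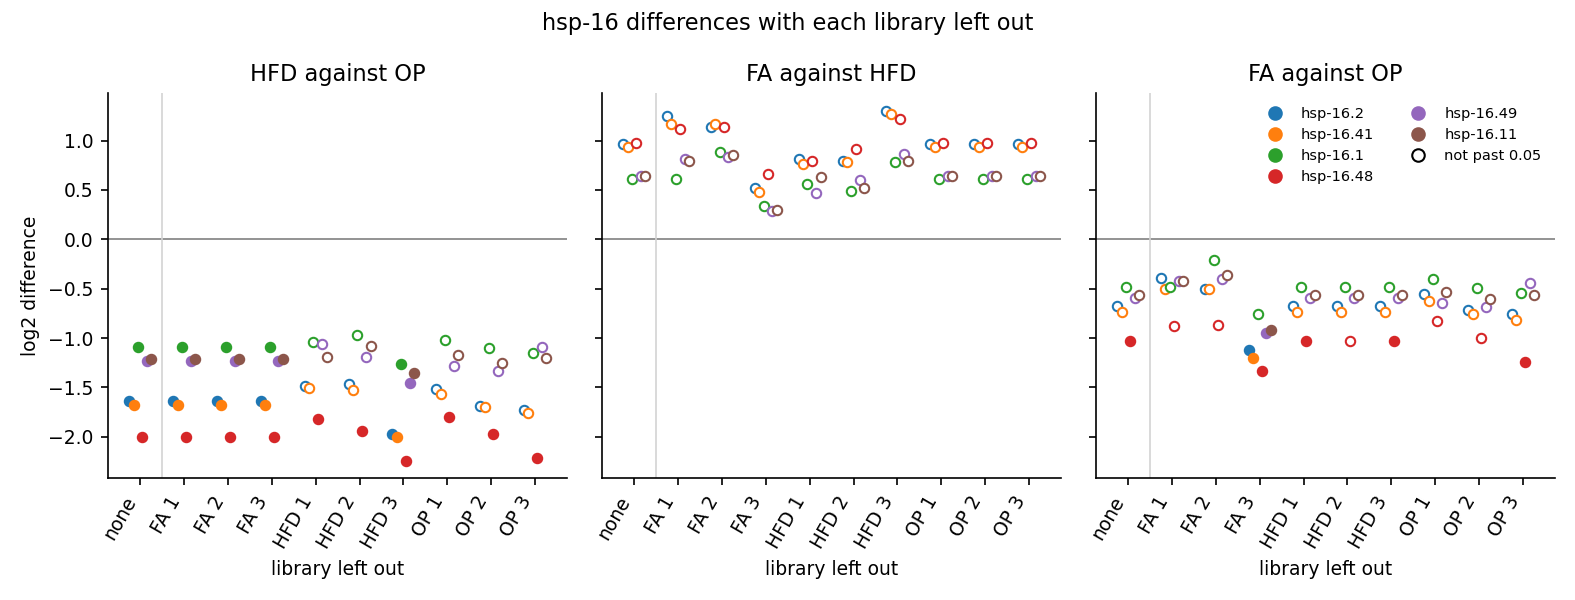
Log2 differences of the 6 hsp-16 genes (vertical axis, log2(FPKM + 1) scale) in the fit of all 9 libraries ("none") and with each library left out in turn (horizontal axis), one panel per comparison; filled points were called at an adjusted p under 0.05. No difference changes sign, hsp-16.48 stays filled throughout for HFD against OP, and leaving out FA 3 brings the FA points nearer to HFD and fills 5 of 6 for FA against OP.

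Against the control the farrerol worms held less hsp-16 RNA on average. The family sum was 0.669 times the OP mean (FA 469 ± 271, OP 702 ± 99.0 FPKM, SD, n = 3 each), and 0.446 times without FA replicate 3. Only hsp-16.48 was called lower in FA than in OP (log2 difference -1.03, SE 0.30, limma adjusted p = 0.0464), where 9.96% of all genes were called lower. Its groups overlapped all the same, since FA replicate 3 with 32.1 FPKM lay above OP replicate 3 with 31.6 FPKM. This call was lost without FA replicate 1, FA replicate 2, HFD replicate 2, OP replicate 1 or OP replicate 2.

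The other 5 members had log2 differences between FA and OP of -0.74 to -0.48, with limma adjusted p of 0.193 to 0.276. No member was free of overlap between FA and OP, as 17.2% of all genes were with FA lower. FA replicates 1 and 2 were below every OP library in these 5 genes, while FA replicate 3 lay inside the OP range in 4 of them and above it for hsp-16.11. Without FA replicate 3, limma called 5 of 6 members lower, where 6.43% of all genes were called lower, with log2 differences of -1.33 for hsp-16.48, -1.20 for hsp-16.41, -1.12 for hsp-16.2, -0.95 for hsp-16.49 and -0.91 for hsp-16.11. The sixth, hsp-16.1, had a log2 difference of -0.75 (limma adjusted p = 0.0661). FA replicate 3 was singled out by its high hsp-16 level, so the calls made without it are not independent of that choice. Without FA replicate 1 or FA replicate 2 instead, no member was called (limma adjusted p of 0.102 to 0.639). HFD against OP and FA against OP share the OP libraries, and HFD against OP and FA against HFD share the HFD libraries. The signs in these comparisons are therefore not independent of each other. Sperm markers (9 of 12) and oocyte and eggshell markers (12 of 12) were called lower in FA than in OP (9.96% of all genes were), with summed levels of 194 to 457 and 223 to 423 FPKM in FA, and 1 epidermis marker, nhr-25, was called higher (not without FA replicate 2, FA replicate 3, OP replicate 2 or OP replicate 3). Intestine markers summed to 4637 to 10466 FPKM in FA, body wall muscle markers to 5949 to 7846 FPKM and epidermis markers to 526 to 766 FPKM, and none of the 5 lists had a gene called in FA against HFD. Their part was not tested here either.

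The members of a head-to-head pair kept different ratios. At the first locus hsp-16.41 had 0.779 to 0.910 times the FPKM of hsp-16.2 in every one of the 9 libraries. The ratio of hsp-16.11 to hsp-16.49 was 0.555 to 0.866. The ratio of hsp-16.48 to hsp-16.1 varied more with the group, being 1.88 to 2.82 in FA, 1.51 to 2.03 in HFD and 2.71 to 3.98 in OP. These ratios were not tested.

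The division of reads between hsp-16.48 and hsp-16.49 also varied. Of the reads on the 2 copies together, hsp-16.48 held 52.7%, 53.0% and 50.0% in FA and 45.5%, 45.1% and 46.6% in HFD. In OP it held 67.6% (95% Wilson interval 64.2% to 70.8%, of 778 reads), 63.5% (59.6% to 67.2%, of 614 reads) and 46.5% (42.7% to 50.3%, of 650 reads). OP replicate 3 thus lay near the HFD libraries and outside the intervals of the other OP libraries, which cover counting error only. The share of hsp-16.11 in the reads of hsp-16.11 and hsp-16.1 was 56.4% to 65.3% over the 9 libraries.

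The summed FPKM of hsp-16.48 and hsp-16.49, which have the same counted length (432 bases), does not depend on this division. That of hsp-16.1 and hsp-16.11 (438 and 476 bases) depends on it slightly. Dropping reads that match both copies, or counting them more than once, would change either sum. Together hsp-16.48 and hsp-16.49 had 42.3 ± 19.1 FPKM in FA, 22.7 ± 7.44 FPKM in HFD and 74.1 ± 8.84 FPKM in OP (SD, n = 3 each). HFD held 0.306 times the OP level and FA 0.570 times. The FA libraries (30.8 to 64.3 FPKM) and the OP libraries (67.9 to 84.3 FPKM) did not overlap in this sum, although they did for each copy alone. Of all single genes tested, 17.2% did not overlap in this direction. The hsp-16.1 and hsp-16.11 copies summed to 23.5 ± 10.6 FPKM in FA, 13.8 ± 3.19 FPKM in HFD and 32.9 ± 2.12 FPKM in OP (SD, n = 3 each).

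The 8 genes whose profile over the 9 libraries was most like that of the family sum were found by the root mean square difference of centred log2 values, among 9898 protein-coding genes with a mean of at least 5 FPKM. The closest were F44E5.5 (0.33) and F44E5.4 (0.33), neighbouring near-identical genes of the heat-inducible HSP70 class whose reads may also be shared. Next came F19B2.5 (0.34), R11A5.3 (0.36), the inducible cytosolic chaperone hsp-70 (0.39), the arsenite-inducible zinc finger gene aip-1 (0.39), the nucleotidyltransferase tent-5 (0.40) and the SREBP-escort homolog scp-1 (0.42). The median over all eligible genes was 0.85. These likenesses all rest on the same 9 libraries and carry no test.

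The gene hsp-70, whose product refolds proteins under stress, spread more widely than the hsp-16 genes. It had 42.1, 26.8 and 161 FPKM in FA worms, 23.3, 17.9 and 44.9 FPKM in HFD worms, and 164, 106 and 71.9 FPKM in OP worms. The HFD libraries lay below every OP library, and FA replicate 3 stood level with the highest OP library. Its log2 difference was -1.98 for HFD against OP (SE 0.58, limma adjusted p = 0.0669), 1.07 for FA against HFD (adjusted p = 1, and 0.33 without FA replicate 3) and -0.91 for FA against OP (adjusted p = 0.347). It was called lower in HFD than in OP when FA replicate 2 or FA replicate 3 was left out (limma adjusted p = 0.0453 and 0.0162), and lower in FA than in OP without FA replicate 3 (adjusted p = 0.0398).

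The means of F44E5.4 and F44E5.5 were lowest in HFD. F44E5.4 had 17.3 ± 11.7 FPKM in FA, 7.55 ± 1.94 FPKM in HFD and 19.7 ± 4.99 FPKM in OP, and F44E5.5 had 22.3 ± 17.2, 8.45 ± 2.31 and 24.1 ± 8.61 FPKM in FA, HFD and OP (SD, n = 3 each). For HFD against OP the log2 differences were -1.27 for F44E5.4 (limma adjusted p = 0.0821) and -1.38 for F44E5.5 (limma adjusted p = 0.0931). Both were called lower without FA replicate 2 or without FA replicate 3.

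The wider set of 17 cytosolic HSP70, HSP90, HSP110 and cochaperone genes had 0 called by limma in each comparison. In HFD against OP 14 of the 17 had negative log2 differences, 6 of them at an unadjusted p under 0.05 (12.8% of all genes tested were that low and lower), and the median was -0.13. Without FA replicate 2, 3 of the 17 were called lower (hsp-70, F44E5.4 and F44E5.5), and without FA replicate 3 also hsp-110. Among all genes tested, 111 to 998 were called lower when a library was left out, against 680 with none left out. In FA against HFD 13 were positive (median 0.15), and 3 were at an unadjusted p under 0.05 and higher in FA (0.733% of all genes tested). That number was 0 without FA replicate 3 or HFD replicate 2, 1 without HFD replicate 1 or OP replicate 1, and 5 without FA replicate 2. Shares of all genes in those altered fits are not given here. In FA against OP the median was -0.10 with 0 at that level. The constitutive HSP70 gene hsp-1 had 1602 ± 186 FPKM in FA, 1485 ± 179 FPKM in HFD and 1357 ± 161 FPKM in OP (SD, n = 3 each). Chaperones of the endoplasmic reticulum and mitochondria (9 genes) had 0 called in any comparison, with medians of 0.16 (HFD against OP), 0.07 (FA against HFD) and 0.20 (FA against OP), and with 1, 0 and 1 gene at an unadjusted p under 0.05.

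**Figure D5:**
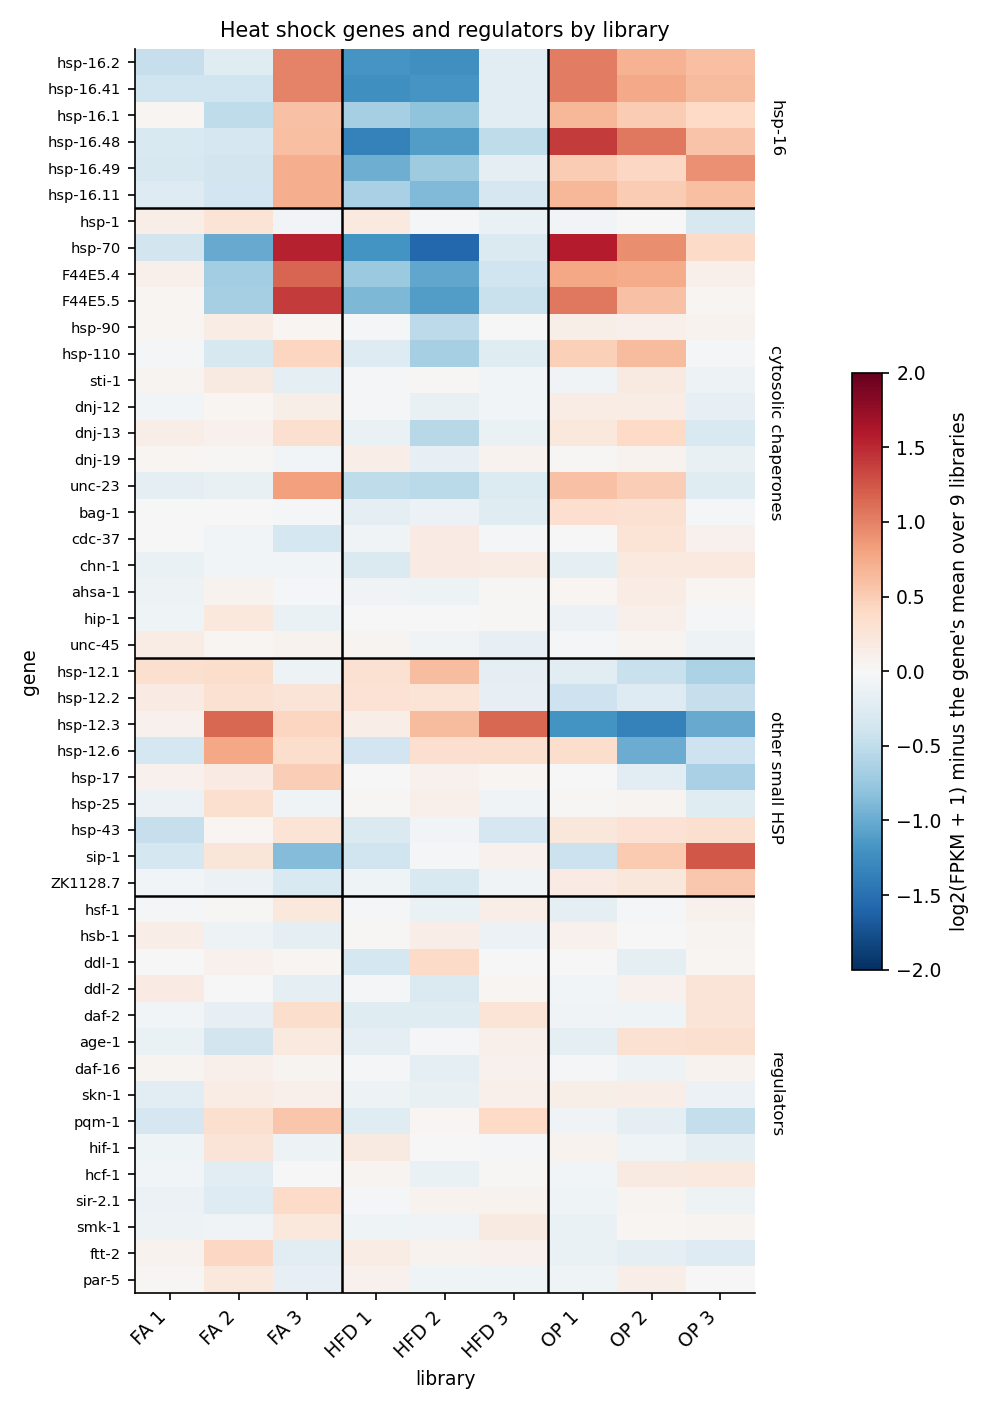
log2(FPKM + 1) of the hsp-16 genes, cytosolic chaperones, other small heat shock genes and regulators in each library, as the difference from the gene's own mean over 9 libraries (colour scale in log2 units; columns run FA, HFD, OP). The hsp-16 block, hsp-70, F44E5.4 and F44E5.5 are mostly blue in HFD and mostly red in OP and FA 3, hsp-12.3 is blue in OP and red in FA and HFD, and the regulators are mostly pale, with pqm-1 among the more coloured.

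Outside the hsp-16 family, hsp-12.3 was the 1 small heat shock gene called in HFD against OP, and it was higher. Of 11 listed, 9 were tested, with a median log2 difference of 0.33 in that comparison, 0.03 between FA and HFD and 0.53 between FA and OP. The gene hsp-12.3, of the hsp-12 class of very short members, had 24.8 ± 10.1 FPKM in FA, 26.2 ± 9.52 FPKM in HFD and 6.41 ± 0.885 FPKM in OP (SD, n = 3 each). It rose in HFD against OP (log2 difference 1.82, limma adjusted p = 0.00633) and in FA against OP (1.74, limma adjusted p = 0.00434). In FA against OP, hsp-12.2 also rose (log2 difference 0.62, limma adjusted p = 0.0232) and ZK1128.7 fell (-0.47, limma adjusted p = 0.0494). The call for hsp-12.2 was lost without FA replicate 2 or any 1 OP library, and that for ZK1128.7 without any 1 library other than OP replicate 1.

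The remaining small heat shock genes named here were not called. The DAF-16 target hsp-12.6 was low, with 2.16 ± 1.16 FPKM in FA, 1.74 ± 0.703 FPKM in HFD and 1.11 ± 0.987 FPKM in OP. The small heat shock gene sip-1 had 229 ± 87.4 FPKM in FA, 255 ± 42.8 FPKM in HFD and 414 ± 223 FPKM in OP (SD, n = 3 each). F08H9.3 and F08H9.4 stayed below the test's filter, at no more than 0.843 FPKM in any library.

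RNA of the known regulators of hsp-16 transcription was not called different by limma in any comparison, for 15 of 15 genes tested and with 0 at an unadjusted p under 0.05 in each. The heat shock factor gene hsf-1 had 12.9 ± 1.23 FPKM in FA, 12.17 ± 1.27 FPKM in HFD and 11.9 ± 1.25 FPKM in OP. The gene daf-16 had 42.1 ± 0.691 FPKM in FA, 39.0 ± 4.02 FPKM in HFD and 39.4 ± 2.47 FPKM in OP (SD, n = 3 each). The lowest limma adjusted p in the list was 0.381 in HFD against OP, 1 between FA and HFD and 0.286 between FA and OP. That lowest value was of pqm-1, which was called higher in FA without FA replicate 1 (log2 difference 0.68, limma adjusted p = 0.0416). The proteins HSF-1 and DAF-16 are known to be controlled largely after translation, which RNA levels do not measure.

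Among genes that answer metals, xenobiotics and osmotic stress, those called were higher in the treated worms. In HFD against OP 4 of 9 tested were called higher and 0 lower, where 2.74% of all genes were called higher. In FA against OP 5 were called higher, where 4.61% of all genes were, with a median log2 difference of 0.84 in each. In FA against HFD 0 were called, with 0 at an unadjusted p under 0.05. The glutathione transferase gene gst-4 rose the most (log2 difference 3.09 in HFD, limma adjusted p = 4.35e-05, and 2.78 in FA, adjusted p = 0.000115). The cadmium-responsive gene cdr-1 rose by 1.55 log2 units in HFD and 1.25 in FA (limma adjusted p = 0.00281 and 0.0044), and the osmotic stress enzyme gene gpdh-1 by 1.24 and 1.18 (adjusted p = 0.00455 and 0.00339). The peroxisomal catalase gene ctl-2 rose by 1.099 in HFD and 1.12 in FA (limma adjusted p = 0.0426 and 0.0242), and the superoxide dismutase gene sod-3 by 0.84 in FA (limma adjusted p = 0.0133). The call for sod-3 was lost without OP replicate 2. That for ctl-2 was lost in HFD against OP without any 1 OP library, HFD replicate 2, HFD replicate 3 or FA replicate 2, and in FA against OP without any 1 OP library, FA replicate 2 or FA replicate 3.

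The genes around the hsp-16 loci gave no calls. Of the 12 nearest protein-coding neighbours, 3 on each side of each locus, 7 were expressed well enough to be tested and 0 were called by limma in any comparison, with a lowest adjusted p of 0.129 and 0, 0 and 1 gene at an unadjusted p under 0.05 for HFD against OP, FA against HFD and FA against OP. At the first locus Y46H3A.4 had 1.93 to 7.20 FPKM, while F36H9.1, F36H9.10, srt-41, srt-42 and Y46H3A.5 stayed at or below 1.68 FPKM. At the second locus T27E4.5, oac-50 and T27E4.1 had means between 1.17 and 2.71 FPKM in the groups, T27E4.7 had 19.3 to 26.4, F21C10.10 71.3 to 123.4 and F21C10.9 80.7 to 94.9 FPKM.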

How the data were processed

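RNA sequencing libraries were built with a NEBNext Ultra II kit from total RNA of whole worms, per the labels' protocols. Per the submitters' processing notes, the genome build was WBcel235. Aligner, read counter and strand setting are not named in the labels. The authors deposited 1 table of FPKM values with gene positions and lengths; 0 further columns of values per sample were present. The columns OP50_1 to OP50_3 were taken as the OP samples of the same number. FPKM times gene length was a whole multiple of 1 read for 100% of values (tolerance 0.01 of a read), which gave the reads per gene; a gene of 1 kilobase with 1 read had 0.0434 to 0.0597 FPKM. Unnamed loci (52, with 0.0184% to 0.0293% of reads) were left out.

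FPKM values are not counts, so limma 3.58.1 (R 4.3.3) with a mean-variance trend was run on log2(FPKM + 1) of all 9 libraries, with 3 group means, two-sided tests and Benjamini-Hochberg adjustment over 14730 genes. Log2 differences on this scale understate changes of low genes. Within groups, libraries differed by more than counting noise (chi-square per gene 18.0 to 82.7), so each was counted as a separate library; this does not show whether any are preparations of the same RNA.

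Named genes are the 6 members, list members called in any comparison, 8 further genes picked by name (hsf-1, daf-16, hsp-70, F44E5.4, F44E5.5, hsp-12.6, hsp-1, sip-1), the neighbours of the loci, and the 8 genes most like the family sum. Of the listed genes, daf-21, C01G10.8 and hsf-2 did not match a name in the table. The members and lists were chosen with earlier results of these data known. Positions matched Ensembl release 115 for 99.82% of the 46924 identifiers found there. Python 3.11.15 with pandas 2.3.3 and matplotlib 3.10.9 made the sums and figures. Alternatives were other pseudocounts, filters, scalings and thresholds, fits of 2 groups, robust moderation, the replicate number as a block, voom on recovered reads, and each library left out.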

Additional observations from a re-analysis of the deposited data

How the results depend on the processing

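All 6 hsp-16 log2 differences kept their sign in each of the 20 alternatives of each comparison, and hsp-16.48 was called in HFD against OP in all 20. The number of members called lower in HFD against OP was 1 with no filter on low values, 1 at an adjusted p under 0.01 and 1 to 6 with a library left out. After rescaling to equal FPKM sums 4 were called (without hsp-16.1 and hsp-16.49), and after quantile normalization 4 (without hsp-16.2 and hsp-16.41). In FA against OP it was 0 with no filter, 0 after rescaling, 0 after quantile normalization, 0 with robust moderation, 0 at an adjusted p under 0.01 and 0 to 5 with a library left out. The cause of these changes was not tested. The log2 ratio of the family sums with a library left out was -1.98 to -1.43 for HFD against OP, 0.43 to 1.40 for FA against HFD and -1.17 to -0.35 for FA against OP. Over all genes, HFD against OP gave 403 higher and 680 lower calls; 186 and 286 with no filter, 116 and 153 at an adjusted p under 0.01, 1118 lower with 2 groups only, and 110 to 488 and 111 to 998 with a library left out. FA against HFD gave 0 higher and 1 lower; 0 lower with a pseudocount of 0.1, an FPKM minimum of 5, 2 groups only, voom and an adjusted p under 0.01, and 0 to 1 in each direction with a library left out. FA against OP gave 679 higher and 1467 lower; 387 higher with no filter, 398 after rescaling, 201 higher and 617 lower at an adjusted p under 0.01, and 246 to 802 and 637 to 1748 with a library left out.

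With a library left out, HFD against OP had 0 to 4 cytosolic chaperones called lower and, of other small heat shock genes, 1 to 3 higher and 0 to 1 lower. FA against OP had 0 to 1 cytosolic chaperones lower, 1 to 3 other small heat shock genes higher and 0 to 2 lower, 0 to 1 regulators higher, and 3 to 6 metal, xenobiotic and osmotic stress genes higher. In FA against OP the log2 differences of F44E5.4 and F44E5.5, -0.35 and -0.31, turned to 0.10 and 0.15 without FA replicate 2 (ranges -0.84 to 0.10 and -0.87 to 0.15). With the replicate number as a block, limma called 6 members lower in HFD against OP (over all genes 367 higher and 470 lower), 0 members in FA against HFD (0 and 0) and 1 lower in FA against OP (619 and 1249). That 1 was hsp-16.49 (limma adjusted p = 0.0471), while hsp-16.48 was no longer called (limma adjusted p = 0.0685). Nothing in the labels says that the numbers pair libraries: deviations of same-numbered libraries correlated at -0.23 to 0.30 over 9 pairs, 3 of them over 0.1. Those of differently numbered libraries correlated at -0.24 to 0.18 over 18 pairs, 3 of them over 0.1. Read depth limits the copies of the second locus most, with as few as 37 reads of hsp-16.1 in a library.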

Other observations

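Some genes outside the chaperone lists were among the 8 whose profile was most like that of the family sum. They were picked for that likeness, so their levels are a description. The arsenite-inducible gene aip-1 had 49.4, 49.7 and 112 FPKM in FA worms, 31.4, 39.7 and 42.9 FPKM in HFD worms, and 111, 78.9 and 49.6 FPKM in OP worms. It was low in all HFD libraries and high in FA replicate 3 and OP replicate 1. In OP replicate 3, however, aip-1 was level with FA replicates 1 and 2. The family sum was 626 FPKM in OP replicate 3, against 305 and 321 FPKM in FA replicates 1 and 2. F19B2.5 averaged 94.0 ± 16.6 FPKM in FA, 46.4 ± 19.4 FPKM in HFD and 125 ± 40.5 FPKM in OP, and R11A5.3 averaged 7.08 ± 2.67, 4.45 ± 0.448 and 10.6 ± 1.32 FPKM in FA, HFD and OP (SD, n = 3 each). The nucleotidyltransferase gene tent-5 averaged 55.4 ± 20.8 FPKM in FA, 36.5 ± 3.91 FPKM in HFD and 71.4 ± 20.2 FPKM in OP, and scp-1 averaged 20.1 ± 14.4, 10.98 ± 0.875 and 23.3 ± 8.24 FPKM in FA, HFD and OP (SD, n = 3 each). Other heat shock genes of the lists ranked lower in likeness, with unc-23 at place 12, the endoplasmic reticulum chaperone hsp-4 at 15 and hsp-110 at 17 of 9898. The regulators hsf-1 and daf-16 stood at 2797 and 3021. Their root mean square differences, 0.79 and 0.80, lay near the median of the eligible genes (0.85), so these places show no likeness to the family.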
